A study of Mus musculus with 6 samples.

Results

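The carbonic anhydrases are a family of zinc enzymes, and 10 mouse members were followed here in 6 RNA sequencing libraries from intestinal tumour organoids. The 10 genes (Car1, Car2, Car3, Car4, Car5b, Car8, Car9, Car11, Car12 and Car13) were taken by gene symbol from a table of 23224 genes. The organoids are labelled AKP and were grown from tumours that formed in mice; the labels do not spell out the alleles. Both groups share that background. One group of 3 libraries is labelled Control, and the other group of 3 carries the genotype label SOX17KO, a CRISPR-Cas9 deletion of the endoderm transcription factor SOX17. The guide, the number of clones, what was done to the Control cells and whether replicates were separate cultures are not stated in the labels, so p-values measure only the spread between these samples, which may be technical.

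Carbonic anhydrases interconvert carbon dioxide and water with bicarbonate and a proton. In the gut they supply the bicarbonate and protons that epithelial transporters exchange for chloride and sodium, and Car1 and Car4 are typical of mature colonocytes. The isoforms differ in place: Car1, Car2, Car3 and Car13 are cytosolic, Car5b is mitochondrial, Car4, Car9 and Car12 face the outside of the cell, and Car8 and Car11 have lost catalytic activity. Car9 is a widely used hypoxia marker because the hypoxia-inducible factor HIF-1 acts on its promoter.

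Of the 10 members, 6 had enough reads in enough libraries to be tested, and 2 of these rose in the libraries labelled SOX17KO: Car9, 6.04-fold, and Car13, 12.8-fold. None fell, and Car2, Car5b, Car8 and Car12 were not called at an adjusted p below 0.05. Over all 12137 genes tested, 6.87% were called, 3.67% as higher and 3.20% as lower. Among the 6, groups did not overlap for 5 members, 4 higher and 1 lower, against 28.2% of all tested genes in either direction (1696 higher and 1724 lower). The median log2 fold change of the 6 was 1.13, against 0.014 over all tested genes. Those 6 passed a filter on low counts that a gene can pass through its higher group alone, so these counts describe the tested members and not the family. Car1, Car3, Car4 and Car11 did not pass it.

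The promoters of 3 members show how the data and the sequence sit side by side: Car9 as the member with the largest rise among the extracellular enzymes, Car12 as its close relative, and Car4 as an extracellular member with no reads. Each sequence is a RefSeq window on GRCm38.p6, from 250 bases before to 50 after the start of the gene, printed 5′ to 3′ along the gene. Capitals mark ACGTG, a form of the core of the HIF site, on either strand (CACGT when read on the opposite one). Other forms of that core were not searched. The windows are chr4:43506776-43507075 for Car9, chr9:66713436-66713735 for Car12 and chr11:84957504-84957803 for Car4, all on the plus strand.
Car9: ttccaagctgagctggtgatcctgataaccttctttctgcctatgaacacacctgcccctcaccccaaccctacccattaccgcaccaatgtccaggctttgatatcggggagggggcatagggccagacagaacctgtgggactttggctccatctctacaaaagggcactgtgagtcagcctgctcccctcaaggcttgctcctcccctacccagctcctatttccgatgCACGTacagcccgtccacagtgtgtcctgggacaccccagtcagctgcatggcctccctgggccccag
Car12: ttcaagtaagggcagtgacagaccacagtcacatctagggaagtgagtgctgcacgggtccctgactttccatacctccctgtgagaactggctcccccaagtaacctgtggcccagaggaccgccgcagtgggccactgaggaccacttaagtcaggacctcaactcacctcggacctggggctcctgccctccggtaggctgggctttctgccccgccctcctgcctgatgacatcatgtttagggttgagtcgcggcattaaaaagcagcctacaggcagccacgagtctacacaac
Car4: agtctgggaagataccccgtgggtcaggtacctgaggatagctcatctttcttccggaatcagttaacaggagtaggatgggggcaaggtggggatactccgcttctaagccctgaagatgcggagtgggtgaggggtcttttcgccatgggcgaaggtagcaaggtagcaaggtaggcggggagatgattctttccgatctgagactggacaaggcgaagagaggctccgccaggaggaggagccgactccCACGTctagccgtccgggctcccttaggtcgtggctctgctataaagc
The Car9 window held 1 match to ACGTG, starting 18 bases before the start of the gene, and the Car4 window held 1, starting 2 bases after it. The Car12 window held 0. RefSeq windows were matched for 5 of the 10 members (Car4, Car5b, Car9, Car11 and Car12), as 6 windows. The 4 windows other than those of Car9 and Car4 held no ACGTG on either strand. Of 32851 mouse promoter windows of this length, 19.6% held ACGTG on either strand, so its presence in a window is common. The SOX core ATTGT, searched on both strands, was in none of the 6 windows and in 31.0% of all windows. A match is a run of letters and not evidence of binding, and the absence of a match says nothing of SOX17 binding elsewhere.

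The libraries held 21238718 to 27503254 counts in Control and 18290912 to 24765258 in the other group. Values are CPM, counts scaled to a common library size, and a count of 0 in a library allows up to 3 counts, or 0.109 to 0.166 CPM, from counting error alone. Sox17 RNA ranged from 34.2 to 34.5 CPM in Control, and the 3 libraries labelled SOX17KO gave 33.8, 41.9 and 45.1 CPM (edgeR adjusted p = 0.345), so it was not lower and does not check that label; every direction below rests on the label. SOX17KO replicate 1 stood apart: its log2 CPM correlated with the rest of its group at 0.960 and 0.963, against 0.986 for the remaining pair. Epithelial markers, led by Krt19, summed to 12900 to 13700 CPM in Control and 9500 to 13600 CPM in the other group. Of that list 6 genes were tested and 2 were called higher, Epcam and Cldn7 (log2 fold changes 0.34 and 0.43, edgeR adjusted p = 0.0343 and 0.0223), though neither when Control replicate 1, 2 or 3 was left out, nor Epcam when SOX17KO replicate 2 or 3 was (highest edgeR adjusted p 0.207 for Epcam and 0.143 for Cldn7). Cdh1 was higher in every library labelled SOX17KO and Krt19 lower in every one, neither called (edgeR adjusted p = 0.196 and 0.332). Fibroblast markers were at most 0.42 CPM in sum in any library, with Col3a1, Dcn, Lum and Thy1 at 0 in all 6. Erythroid markers, relevant because red cells are rich in Car1 and Car2, summed to 0.0761 to 0.217 CPM in Control and 0.111 to 0.263 CPM in the other group, with Hba-a2 and Hbb-b1 at 0. Endothelial markers, led by Tek, reached at most 0.878 CPM in sum and enteroendocrine markers, led by Chga, 0.111 CPM. Leukocyte markers summed to 20.3 to 21.0 and 28.6 to 41.2 CPM, nearly all of it Cd14, with Cd3e and Cd79a at 0. Sums for goblet and secretory markers, led by Agr2, were 292 to 335 and 212 to 484 CPM, for tuft markers, led by Avil, 497 to 559 and 160 to 647 CPM, and for gastric markers, led by Tff1, 31.8 to 37.3 and 47.3 to 196 CPM. Within these lists, with 2 to 4 genes tested in each, Foxa3 of the goblet list was called higher (log2 fold change 0.99, edgeR adjusted p = 0.00132) and was called under all 14 alternatives. Fcgbp of that list was lower in every library labelled SOX17KO and was not called (log2 fold change -0.88, edgeR adjusted p = 0.174). Agr2 and Spdef overlapped between the groups and were not called. Ptgs1 of the tuft list was called lower (-0.81, edgeR adjusted p = 0.00672), though not once Control replicate 1 or 2 was left out (highest edgeR adjusted p 0.0525). Gkn1 of the gastric list and Cd14 were called higher (log2 fold changes 2.06 and 0.76, edgeR adjusted p = 0.0388 and 0.0254), though neither when Control replicate 1, 2 or 3 or SOX17KO replicate 2 was left out, nor Gkn1 when SOX17KO replicate 3 was (edgeR adjusted p at most 0.183 for Gkn1 and 0.133 for Cd14). Gkn1 had only 9 counts in Control and 34 in the other group, so its Control values lay near the floor given above. With no low-count filter Epcam and Gkn1 were not called (edgeR adjusted p = 0.0707 and 0.056), and DESeq2 did not call Gkn1 (adjusted p = 0.0961). The part of these in the results below was not tested. In such bulk samples, fewer cells of a type and less RNA per cell cannot be told apart.

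**Figure D1:**
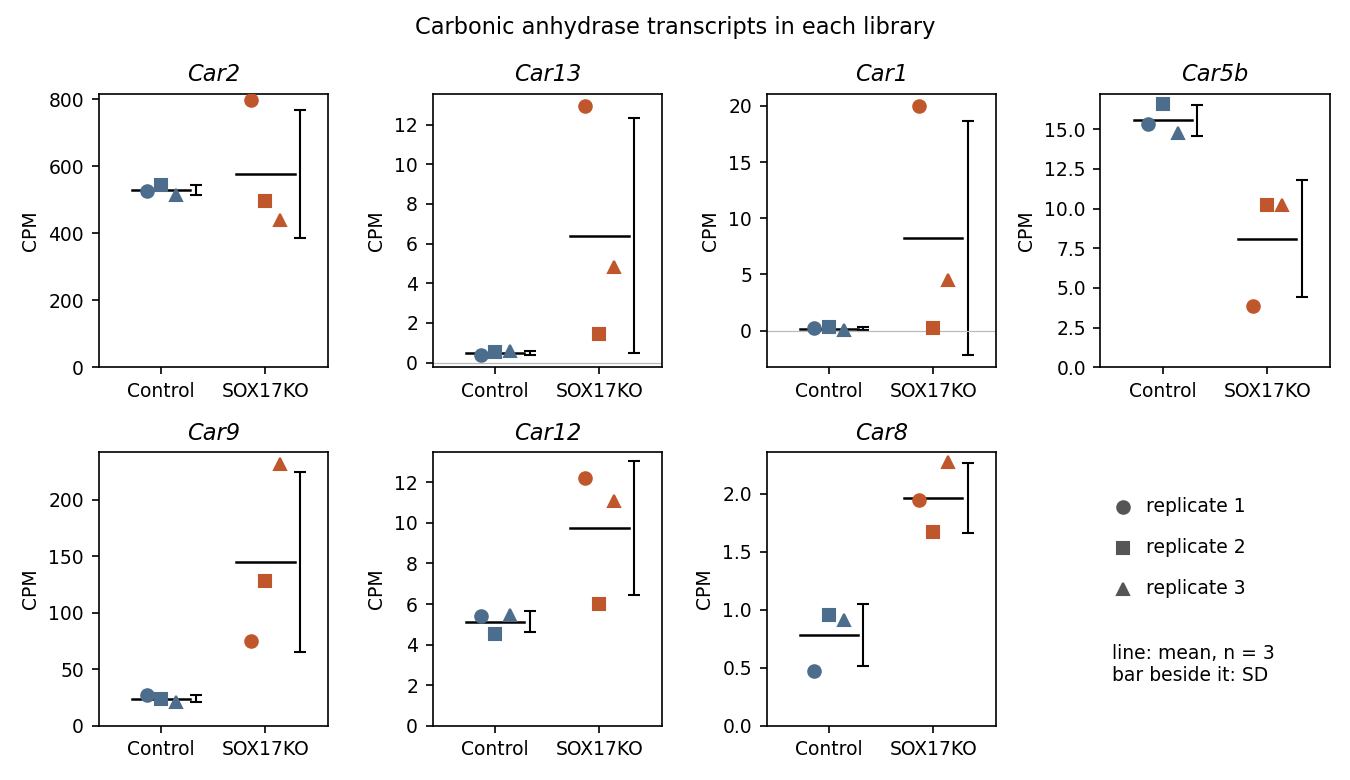
CPM of the 7 members with more than 2 counts, 1 point per library, for Control and SOX17KO; lines are means and the bars beside them SDs over 3 libraries. Car9, Car12, Car13 and Car8 are higher in every library labelled SOX17KO than in any Control library, Car5b is lower in each, and Car1 and Car13 are highest in SOX17KO replicate 1.

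Car2, the fast cytosolic enzyme found in most epithelia, dominated the family. It was at 527, 544 and 515 CPM in Control replicates 1, 2 and 3 against 797, 496 and 438 CPM in SOX17KO replicates 1, 2 and 3. SOX17KO replicate 1 was above the Control range and the other two of that group were below it, so the groups overlap. The means were 528.7 ± 14.5 and 577.2 ± 192.3 CPM (SD, n = 3), and the log2 fold change of 0.13 had a 95% interval of -0.38 to 0.63 (edgeR adjusted p = 0.825). Leaving out SOX17KO replicate 1 turned it to -0.18 (edgeR adjusted p = 0.125).

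Car13, a cytosolic isoform, rose. It was at 0.398, 0.526 and 0.571 CPM in Control against 12.9, 1.45 and 4.82 CPM, in that order, in SOX17KO replicates 1, 2 and 3. Every library labelled SOX17KO lay above every Control library, but they spread widely, and the lowest, replicate 2, held 33 counts against 11 to 15 in Control. The log2 fold change was 3.68 ± 0.79 (SE), with a 95% interval of 1.81 to 5.55 (edgeR adjusted p = 0.0388). Without SOX17KO replicate 1 it was 2.62 and still called (edgeR adjusted p = 0.00378). It was not called without Control replicate 1, 2 or 3 or SOX17KO replicate 3 (edgeR adjusted p = 0.185, 0.162, 0.160 and 0.0705), nor with limma-voom (adjusted p = 0.167).

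Car1, an abundant cytosolic enzyme of colonocytes and red cells, did not pass the low-count filter of the main comparison. Its reads lay mostly in SOX17KO replicates 1 and 3. It had 6, 6 and 2 counts in Control and 523.84, 6 and 81 in SOX17KO replicates 1, 2 and 3, which is 0.217, 0.287 and 0.0761 CPM against 19.99, 0.263 and 4.49 CPM. Replicates 1 and 3 were above Control and replicate 2 was inside the Control range. An exact two-sided permutation test on log2(CPM + 0.5) gave p = 0.20, where 3 against 3 libraries cannot go below 0.10. With no low-count filter its log2 fold change was 5.40 (edgeR adjusted p = 0.0532), and DESeq2 called it (5.42, adjusted p = 0.00327). With SOX17KO replicate 2 left out, Car1 passed the filter and was called (5.99, edgeR adjusted p = 0.0147). It also passed without Control replicate 1, 2 or 3 and was not called (edgeR adjusted p = 0.274, 0.245 and 0.287). The fractional count comes from the estimation step, which divides reads that fit several places.

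Car3, the cytosolic isoform of muscle and fat, had 0 counts in every library. It lies in the same gene cluster as the 3 members just described. On chromosome 3 the members follow each other in the order Car13, Car1, Car3 and Car2, with no other gene of the table between them. Car13 and Car1 had the same order of libraries in the group labelled SOX17KO, with replicate 1 highest and replicate 2 lowest, while Car2 had replicate 3 lowest. The genes before the cluster, E2f5 and 1810022K09Rik, had log2 fold changes of -0.13 and 0.19, and A930001A20Rik after it had -0.23; none was called (edgeR adjusted p = 0.662, 0.404 and 0.853). The 10 members lie on chromosomes 3, 4, 7, 9, 11 and X. Of 42 tested genes within 3 tested genes of a member on either side, members left aside, 1 was called (2.38%, against 6.87% of all tested genes): Asph, near Car8, with a log2 difference of 0.71 (edgeR adjusted p = 0.0466), named after its value was seen.

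Car5b, the mitochondrial member, whose bicarbonate feeds biosynthetic carboxylases, was the one tested member with lower values. It was at 15.3, 16.6 and 14.8 CPM in Control against 3.83, 10.2 and 10.2 CPM, in that order, in SOX17KO replicates 1, 2 and 3. All libraries labelled SOX17KO were below Control, replicate 1 by the most. Its log2 fold change, -0.95 ± 0.35 (SE), missed the threshold (edgeR adjusted p = 0.175; 95% interval -1.76 to -0.13). Without SOX17KO replicate 1, the values of the other two lay close together and Car5b was called lower at a smaller difference, -0.60 (edgeR adjusted p = 0.00363). In that fit 10.3% of all genes tested were called lower.

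Car9, the transmembrane enzyme that acidifies the outside of hypoxic tumour cells, rose. It was at 27.5, 23.4 and 20.9 CPM in Control against 74.7, 127.7 and 231.5 CPM, in that order, in SOX17KO replicates 1, 2 and 3. The lowest library labelled SOX17KO was well above the highest Control library, and replicate 3 was far above replicate 1. Means were 23.9 ± 3.32 and 144.6 ± 79.7 CPM (SD, n = 3), and the log2 fold change was 2.60 ± 0.39 (SE; 95% interval 1.67 to 3.52; edgeR adjusted p = 0.0115). It was called without each library labelled SOX17KO in turn, with log2 fold changes of 2.08 to 2.90. It was not called without Control replicate 1, 2 or 3 (edgeR adjusted p = 0.0749, 0.0735 and 0.083), with log2 fold changes of 2.706, 2.577 and 2.495. Those fits called 1.56% to 1.64% of all genes tested. Its exons overlap those of Gm12454, an antisense gene on the opposite strand; the strand setting of the counting is not given in the sources used here, so reads of the pair cannot be told apart. The nearest tested genes, E130306D19Rik and Tpm2, had log2 fold changes of 0.27 each and were not called (edgeR adjusted p = 0.446 and 0.492).

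Car12, the other transmembrane enzyme of the family in tumours, was at 5.39, 4.55 and 5.48 CPM in Control against 12.2, 6.01 and 11.1 CPM, in that order, in SOX17KO replicates 1, 2 and 3. Replicate 2 was only just above the Control range and the other two were clearly above it. Its log2 fold change, 0.92 ± 0.27 (SE), missed the threshold (edgeR adjusted p = 0.102; 95% interval 0.28 to 1.57). It was called without SOX17KO replicate 2 (log2 fold change 1.18, edgeR adjusted p = 0.0136), and DESeq2 also called it (adjusted p = 0.0246). Car4, which is anchored in the apical membrane of mature colonocytes, had 0 counts in all 6 libraries.

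Car8, which lacks the catalytic zinc site and binds an inositol trisphosphate receptor, was at 0.470, 0.954 and 0.912 CPM in Control against 1.95, 1.67 and 2.27 CPM, in that order, in SOX17KO replicates 1, 2 and 3. The groups did not overlap, on 56.93 and 130 counts in all. The log2 fold change of 1.33 ± 0.33 (SE) narrowly missed the threshold (edgeR adjusted p = 0.0584; 95% interval 0.56 to 2.10). Without SOX17KO replicate 1 it was called (edgeR adjusted p = 0.0202), where 11.9% of all genes tested were called higher. It was also called with DESeq2 (adjusted p = 0.0278). Car11, the other inactive member, had 1 count in Control and 1 in the other group, too few for any comparison.

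**Figure D2:**
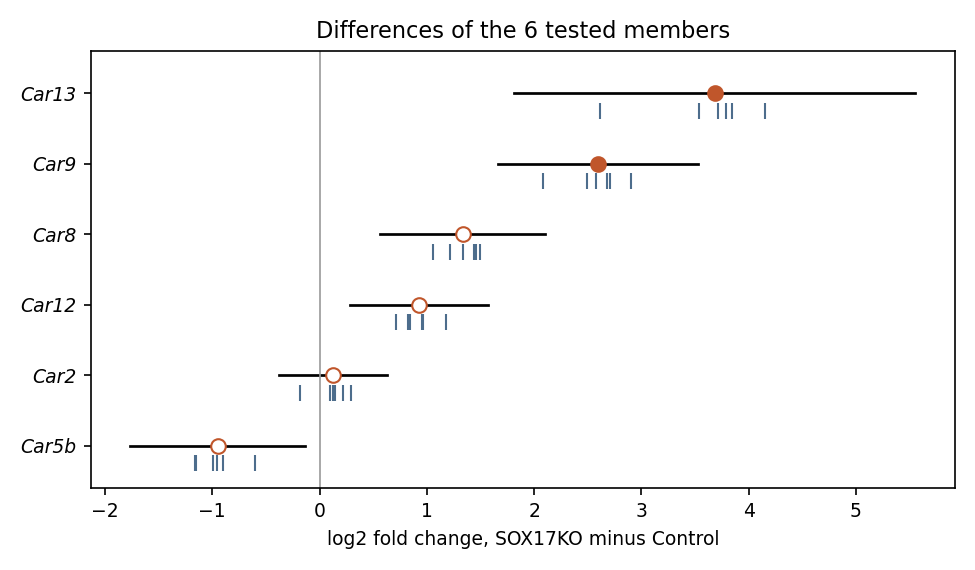
Log2 fold change of the 6 tested members, SOX17KO minus Control, with 95% intervals (black lines); filled points have an edgeR adjusted p below 0.05, and blue ticks give the value with each library left out in turn. Only the ticks of Car2 lie on both sides of 0, from -0.18 to 0.29.

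Per length, Car2 was also the highest member. Levels between genes were compared as CPM per kb of exon, with exon lengths of 1248 to 7597 bases from GENCODE on GRCm38, a later build than the one the counts were made on. In Control, Car2 was at 219 ± 6.03, Car9 at 10.4 ± 1.43 and Car5b at 2.45 ± 0.154 CPM per kb (SD, n = 3). These 3 and Car12, at 0.676 ± 0.0681 CPM per kb, did not overlap with each other. Below them Car13, Car8 and Car1, at 0.217 ± 0.039, 0.202 ± 0.0698 and 0.155 ± 0.0861 CPM per kb, overlapped and have no order. In the libraries labelled SOX17KO, Car2 was at 238 ± 79.4 and Car9 at 62.6 ± 34.4 CPM per kb, and the values of these 2 did not overlap. The next by mean, Car1 at 6.6 ± 8.31, Car13 at 2.79 ± 2.57, Car12 at 1.29 ± 0.436 and Car5b at 1.27 ± 0.581 CPM per kb, overlapped.

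**Figure D3:**
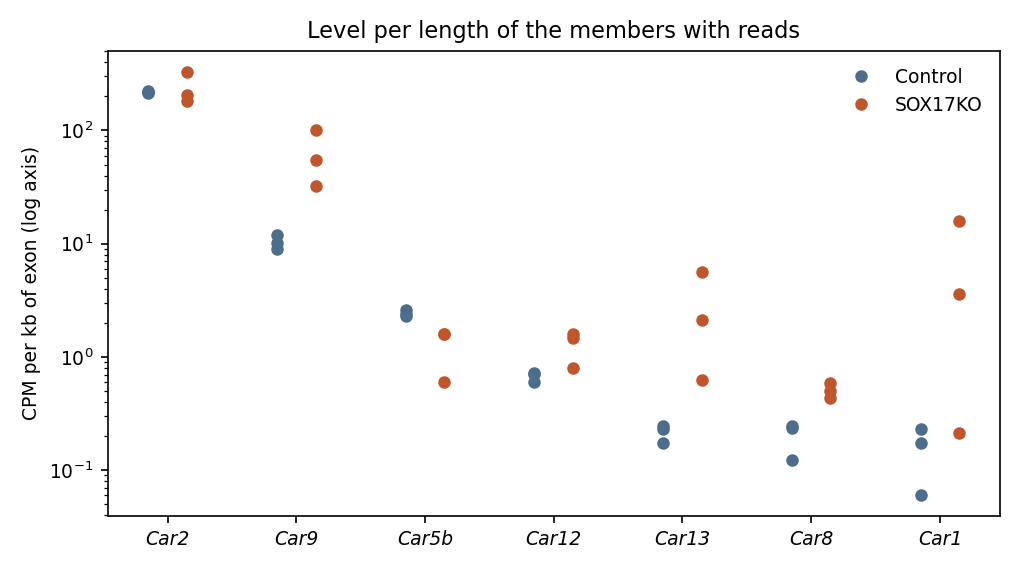
Level per length (CPM per kb of exon, log axis) in each library for the 7 members with more than 2 counts, ordered by their Control mean. Car2 is highest throughout, at 181 to 329 CPM per kb, and Car9 moves from 9.07 to 11.9 up to 32.4 to 100 CPM per kb.

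The members did not follow 1 pattern across the libraries labelled SOX17KO. Against the Control mean of log2 CPM, Car9 differed by 1.65, 2.42 and 3.28 in replicates 1, 2 and 3, lowest in the first. Car13 differed by 4.49, 1.41 and 3.08, and Car12 by 1.24, 0.23 and 1.10, both highest in replicate 1 and lowest in replicate 2. Of all tested genes, 18.9% had that order. Car5b differed by -2.002 in replicate 1 and -0.60 in each of the other two, and Car2 by 0.59, -0.09 and -0.27. Car8 was the most even, at 1.29, 1.07 and 1.502.

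**Figure D4:**
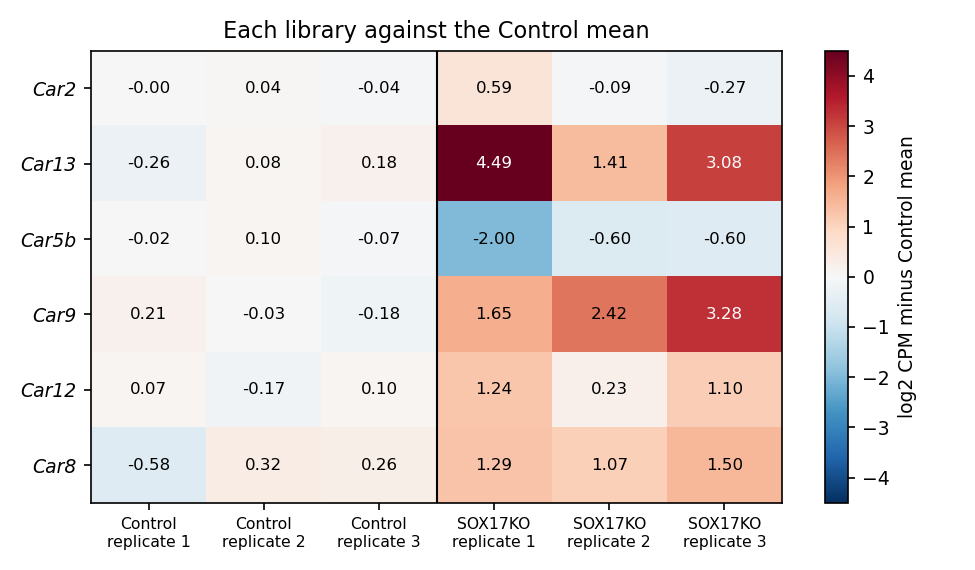
Log2 CPM minus the Control mean for the 6 tested members (rows) in each library (columns), red for higher and blue for lower. Car9 is lowest in replicate 1 among the libraries labelled SOX17KO, at 1.65, whereas Car13 is highest there, at 4.49.

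The genes whose profile was most like that of Car9 over the 6 libraries, by Pearson correlation of log2 CPM among 9326 tested genes with a mean log2 CPM above 3, were Rhobtb2, Man2a1 and Rnf128 (r = 0.996, 0.994 and 0.993). All had small differences next to Car9. Rnf128, a ubiquitin ligase gene, was at 35.3, 35.3 and 30.3 CPM in Control against 50.2, 58.5 and 70.1 CPM, in that order, in SOX17KO replicates 1, 2 and 3. For Car13 the nearest were Parp8, Cxcr7 and Etv5 (r = 0.996, 0.992 and 0.991). Cxcr7, a chemokine receptor gene, was at 6.30, 6.32 and 7.57 CPM in Control against 91.3, 12.2 and 31.0 CPM, in that order, in SOX17KO replicates 1, 2 and 3. These correlations are descriptions over 6 libraries that fall into groups.

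Genes of the hypoxia response, to which Car9 belongs, were listed as 30 others, and all were tested: 1 rose, 29 were not called and none fell (median log2 fold change -0.04), against 3.67% of all tested genes higher and 3.20% lower. The 1 called, Pfkfb3, which drives glycolysis, was at 32.4, 32.0 and 28.2 CPM in Control against 49.0, 68.0 and 105.3 CPM, in that order, in SOX17KO replicates 1, 2 and 3 (log2 fold change 1.26 ± 0.26 (SE), edgeR adjusted p = 0.0339). Pfkfb3 was not called without Control replicate 1, 2 or 3 or SOX17KO replicate 2 (highest edgeR adjusted p 0.160). The list divided by library. In SOX17KO replicate 1, 26 of the 30 genes were below every Control library (86.7%, against 40.3% of all tested genes) and the list's median difference from the Control mean was -0.69, while it was 0.13 and 0.29 in replicates 2 and 3. Unlike most of the list, Car9 was above Control in replicate 1. Like Car9, 21 of the 30 were lowest in replicate 1 and highest in replicate 3 within that group, against 22.1% of all tested genes; that order was chosen for counting after the values were seen. Without SOX17KO replicate 1, edgeR called 9 of the 30 higher and 3 lower, where it called 11.9% of all 12220 genes tested higher and 10.3% lower, and the median log2 fold change was 0.23.

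Transporters of bicarbonate and other anions, which move the product of the enzymes, were 19 genes of which 11 were tested: 1 rose, 2 fell and 8 were not called (median log2 fold change -0.10). Over all tested genes 3.67% were called higher and 3.20% lower. Cftr, the chloride and bicarbonate channel, fell from 184.7, 187.0 and 167.5 CPM in Control to 71.4, 85.3 and 99.5 CPM in SOX17KO replicates 1, 2 and 3. The groups lie far apart, with a log2 fold change of -1.07 ± 0.13 (SE, edgeR adjusted p = 0.00513), and Cftr was called under all 14 alternatives (highest adjusted p 0.0458). Slc26a9, a chloride and bicarbonate transporter of stomach and airway, fell from 4.89, 4.40 and 3.42 CPM to 0.534, 0.922 and 1.83 CPM (edgeR adjusted p = 0.0382). Slc4a4, the sodium bicarbonate cotransporter of the basolateral membrane, rose from 4.74, 4.16 and 3.42 CPM to 29.9, 11.3 and 17.9 CPM, a log2 fold change of 2.26 ± 0.36 (SE, edgeR adjusted p = 0.0136). In SOX17KO replicates 1, 2 and 3, its highest and lowest libraries were the same as those of Car13. Neither Slc26a9 nor Slc4a4 was called without Control replicate 1, 2 or 3 (highest edgeR adjusted p 0.169 and 0.0876), and Slc26a9 was also lost without SOX17KO replicate 2 (edgeR adjusted p = 0.100).

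Among 18 genes of proton and lactate export 12 were tested: 2 fell, none rose and 10 were not called (median log2 fold change -0.12), where 3.20% of all tested genes were called lower. Slc9a4, a sodium and proton exchanger, fell from 179.2, 175.2 and 172.2 CPM to 110.0, 124.8 and 124.5 CPM, a log2 fold change of -0.55 ± 0.08 (SE, edgeR adjusted p = 0.0097). Slc9a2, an apical exchanger of the same family, fell from 42.9, 40.8 and 38.7 CPM to 26.0, 30.7 and 29.9 CPM (edgeR adjusted p = 0.0283). Both calls were lost without Control replicate 1, 2 or 3 (highest edgeR adjusted p 0.0741 and 0.144), and that of Slc9a2 without SOX17KO replicate 3 (edgeR adjusted p = 0.0567). Slc16a3, the lactate and proton exporter that is also a hypoxia-responsive gene, was at 83.5, 72.6 and 66.1 CPM in Control against 97.6, 212.5 and 188.1 CPM, in that order, in SOX17KO replicates 1, 2 and 3, and narrowly missed the threshold (edgeR adjusted p = 0.0519); it was named after its values were seen. Without SOX17KO replicate 1 it was called higher (log2 fold change 1.43, edgeR adjusted p = 9.25e-06), where 11.9% of all genes tested were called higher.

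Differentiated colonocyte and enterocyte genes were mostly near 0. Of 24 listed, 23 were in the table and 7 were tested: 2 rose, none fell and 5 were not called (median log2 fold change 0.27), where 3.67% of all tested genes were called higher. Cdhr5, a brush border cadherin gene, rose from 4.05, 2.87 and 2.93 CPM to 15.7, 8.56 and 12.0 CPM (log2 fold change 1.87 ± 0.27 (SE), edgeR adjusted p = 0.00868). Hnf4a, an enterocyte regulator, rose from 3.82, 4.07 and 3.31 CPM to 110.1, 30.0 and 49.4 CPM (edgeR adjusted p = 0.00541). Both had the same order of libraries as Car1 and Car13 in the group labelled SOX17KO, with replicate 1 highest and replicate 2 lowest. Cdhr5 was not called without Control replicate 2 or 3 and Hnf4a not without Control replicate 1 or 3 (highest edgeR adjusted p 0.0662 and 0.0526). Other genes of the list had lower values in that group. Fabp2, a fatty acid binding protein gene of enterocytes, was at 1.303, 1.627 and 1.255 CPM in Control against 0.229, 0.658 and 0.554 CPM, in that order, in SOX17KO replicates 1, 2 and 3, with no overlap of the groups and a log2 fold change of -1.55 ± 0.40 (SE) that was not called (edgeR adjusted p = 0.0687). DESeq2 called Fabp2 lower (adjusted p = 0.0431), as did edgeR when SOX17KO replicate 1 was left out (adjusted p = 0.026). Krt20, a keratin of mature gut epithelium too low to test, had 30 counts in Control and 6 in the other group, also without overlap of the groups in CPM. Slc26a3, the colonocyte chloride and bicarbonate exchanger, had 1 count in Control and 0 in the other group. The 6 other carbonic anhydrase genes were also low: Car6, a secreted enzyme, was the only one tested and was not called, at 0.543, 0.670 and 0.304 CPM in Control and 0, 0.132 and 0.887 CPM in the other group (edgeR adjusted p = 0.791).

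**Figure D5:**
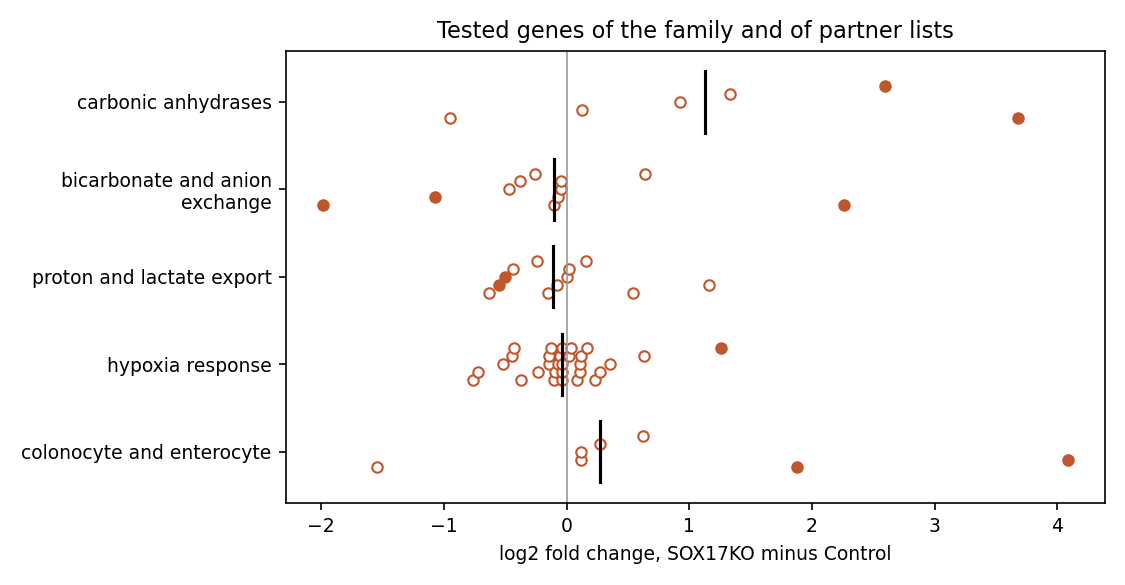
Log2 fold change, SOX17KO minus Control, of each tested carbonic anhydrase member and of tested genes of the 4 partner lists; filled points have an edgeR adjusted p below 0.05 and black lines are medians. The medians are 1.13 for the 6 members and -0.10, -0.12, -0.04 and 0.27 for bicarbonate and anion exchange, proton and lactate export, hypoxia response, and colonocyte and enterocyte genes.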

How the data were processed

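Libraries were directional and poly(A)-selected, per the labels' protocols. The authors deposited 1 table that holds RSEM expected counts per gene; Bowtie, RSEM and mm9 are named, without versions, in the submitters' processing notes. Between 26.6% and 30.3% of values per library were not whole, and counts were rounded before testing. Groups were compared with the quasi-likelihood test of edgeR 4.0.16 (R 4.3.3), TMM scaling, the default filter (minimum count 10, minimum total 15) and Benjamini-Hochberg adjustment over 12137 genes; a log2 fold change over the root of its F gives the SE. CPM use TMM-adjusted totals. Log2 CPM use a prior count of 2. The procedure was tested on simulated data. Intervals come from the fit and include the spread between these libraries, and floors cover counting error only. Reads had no molecular identifiers.

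The members and the lists were chosen with earlier results of these data known. Of each partner list, up to 3 genes called per direction by smallest p were named, or its most abundant tested gene where none was called; of marker lists, the most abundant gene; and for the 2 members with the smallest adjusted p, the 3 most alike genes. Other named genes were chosen after their values were seen. Gene order came from RefSeq on GRCm38.p6 (99.2% of tested genes matched), so no coordinates but those of the promoter windows are given. Alternatives were RLE factors, library totals, 2 other filters, DESeq2 1.42.0, limma-voom (limma 3.58.1), unrounded values, a replicate block and each library left out. Figures used matplotlib 3.10.9.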

Additional observations from a re-analysis of the deposited data

How the results depend on the processing

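With 3 libraries a group, the calls moved with the test and with single libraries. Members called higher were 2 in the main comparison, 5 with DESeq2 and 1 with limma-voom, and 0 to 4 with a library left out; members called lower were 0, and 0 to 1 with a library left out. All genes called higher were 446, with 771 in DESeq2 and 97 to 1453 with a library left out. Those called lower were 388, with 668 in DESeq2 and 94 to 1255 with a library left out. Both counts were lowest with a Control library left out and highest with SOX17KO replicate 1 left out. Genes of the partner lists called higher and lower were 4 each, 8 each with DESeq2, and 0 to 14 and 1 to 9 with a library left out. With a library left out the log2 fold change ranged from -0.18 to 0.29 for Car2, from -1.17 to -0.60 for Car5b, from 1.06 to 1.496 for Car8, from 2.08 to 2.90 for Car9, from 0.72 to 1.18 for Car12 and from 2.62 to 4.16 for Car13. With DESeq2 it was 1.335 for Car8 and 0.921 for Car12, both called, and with limma-voom 3.20 for Car13, not called; the cause was not tested. No pairing by replicate number was seen in deviations from the group means. Their correlations between libraries of the same number were -0.186, -0.047 and -0.181, and 0 of 6 libraries correlated best with their own number. With 3 libraries a group, whose deviations sum to 0, this check cannot exclude a pairing. With the replicate block 1 member was called higher (Car9) and Car13 was not (log2 fold change 3.28, edgeR adjusted p = 0.0873). All genes called higher and lower under the block were 183 and 143, and list genes 3 and 1. Slc9a4, Slc9a2, Slc26a9 and Pfkfb3 were not called under it (edgeR adjusted p = 0.0713, 0.131, 0.11 and 0.0905). Nor were the markers Epcam, Cldn7, Gkn1 and Cd14 (edgeR adjusted p = 0.192, 0.126, 0.113 and 0.0663), while Foxa3 and Ptgs1 still were (0.0146 and 0.031). RLE factors, library totals, both other filters and unrounded values changed no member's call. The median over all tested genes stayed between -0.005 and 0.031 in every alternative. Counts limit Car1, Car8 and Car13, and Car3, Car4 and Car11 were not measurable at this depth.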

Other observations

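Some other genes that did not pass the low-count filter were also highest in SOX17KO replicate 1, where Car1 had most of its counts. They were chosen after their values were seen. Slc9a3, the apical sodium and proton exchanger of enterocytes, had 1 count in Control replicate 1 and 0 in the other two, against 103, 5 and 8 in SOX17KO replicates 1, 2 and 3. Cdx1, an intestinal transcription factor, had 0 counts in each Control library and 23, 0 and 1 in SOX17KO replicates 1, 2 and 3. Some low-count markers of other cell types peaked there too, but the abundant markers of the same lists did not. In SOX17KO replicates 1, 2 and 3, Atoh1 of the goblet list was at 1.34, 0.0878 and 0.166 CPM. Dclk1 of the tuft list was at 2.29, 0.0439 and 0.166 CPM, in that order. Krt20, which did not pass the filter either, was not highest in replicate 1. Agr2, the most abundant goblet marker, was lowest in that library, at 130.2 CPM against 421.2 and 328.2 CPM in replicates 2 and 3. So was Avil, the most abundant tuft marker, at 88.1 CPM against 568.5 and 487 CPM. The totals of both lists were lowest in that library as well.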
